A study of Homo sapiens with 6 samples.

Results

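Kinesins, the motor proteins that walk along microtubules or take them apart, were followed at the RNA level in LoVo cells with and without DCC-2036. A gene was taken as a kinesin when its symbol was KIF with a number and an optional letter, or KIFC1, KIFC2 or KIFC3, and the adaptor KIFAP3 was left out. These were 42 of the 19223 gene symbols measured, with 92 transcripts between them, and for each symbol the transcript whose mean over the 6 libraries was highest stood for the gene. By their known work the 42 were split into 14 mitotic kinesins, 15 transport kinesins and 13 kinesins of cilia, microtubule length or other tasks. KIF2A also works at spindle poles but was placed in the last group. Counts and medians by role depend on such choices, for which no alternative was run. Motors with other symbols, such as the kinetochore kinesin CENPE, were treated as partners.

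LoVo is an established human cell line of colorectal adenocarcinoma, and DCC-2036 (rebastinib) is an inhibitor of tyrosine kinases. The Control group was 3 libraries from LoVo cells given vehicle for 48 h, and the DCC-2036 group was 3 libraries from LoVo cells given 2.5 μM of the drug for 48 h. The sample labels give this time, whereas the paper's figure legend gives a shorter treatment. The labels do not say whether the libraries of a group came from separate cultures, so p-values measure the spread between these 6 samples, which may be technical.

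Most kinesins step toward the fast-growing end of the microtubule, while the KIFC members step the other way and the KIF2 members shorten microtubule ends instead of walking. Mitotic kinesins build the spindle, move chromosomes and finish cytokinesis, and their genes are transcribed mainly in G2 and M phase. Transport kinesins carry vesicles, endosomes, mitochondria and ciliary cargo in cells that divide and in cells that do not.

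Each value was treated as a normalized signal per transcript, and how the authors made it is not given in the sources used here. The values were not whole reads, so the depth per library is unknown, and the column totals of 38997229, 39956227 and 40587145 in Control against 43279603, 45957597 and 48023306 with the drug are sums of such values. A difference was called at an adjusted p under 0.01 in limma, fitted over all 12725 genes that reached a value of 10 in 3 or more libraries. Fold changes are on the log2(value + 1) scale, which understates the change of genes with low values, and are DCC-2036 minus Control. An exact permutation test of 3 libraries against 3 cannot give a p below 0.1.

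Of the 42 kinesins, 37 passed the filter on low values. KIF2B and KIF6 were listed at 0 in all 6 libraries. KIF4B, KIF19 and KIF25 had values of at most 4.54 in any library and were not tested. Among the 37 tested, 11 were called lower with DCC-2036, where 22.7% of all tested genes were. limma called 0 kinesins higher, against 19.2% of all tested genes, and 8 kinesins were higher at an unadjusted p under 0.05, against 30.5% of all tested genes. The Control and DCC-2036 values did not overlap in 25 of the 37, and in 71.1% of all tested genes. The median log2 fold change was -0.20 over the 37 kinesins and -0.09 over all tested genes.

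By role, the 11 kinesins that fell were 7 of 12 tested mitotic kinesins, 2 of 15 transport kinesins and 2 of 10 kinesins of cilia and other tasks. KIF14, KIF18B, KIF20A and KIF24 were called under all 17 alternatives of processing, those that left out a library included. The count of 11 was less steady: it was 4 without Control_1, without Control_2 or without DCC-2036_2, and 5 without Control_3. Over all tested genes the lower count, 2887, was 1571, 1502, 1650 and 1534 in these fits. When the kinesin count was 4, it held 3 mitotic, 0 transport and 1 other kinesin. Differences between roles in these counts were not tested. With libraries scaled by the median of ratios 9 kinesins were called lower and 2, KIF1B and KIF13B, higher. Over all tested genes 2667 were lower and 2643 higher there, in place of 2887 and 2442. Without the filter on low values KIF1C, KIF22, KIF3C and KIFC1 were not called (adjusted p 0.012 to 0.0202), and with the median of ratios KIF1C (0.0101) and KIF22 (0.0146) were not. With the replicate number as a block KIF15, KIF1C, KIF22, KIF2C, KIF3C and KIFC1 were not called (0.0121 to 0.0322). With a variance trend KIF11 and KIF4A were called lower as well, and KIF1B, KIF13B, KIF2A and KIF5B higher.

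**Figure D1:**
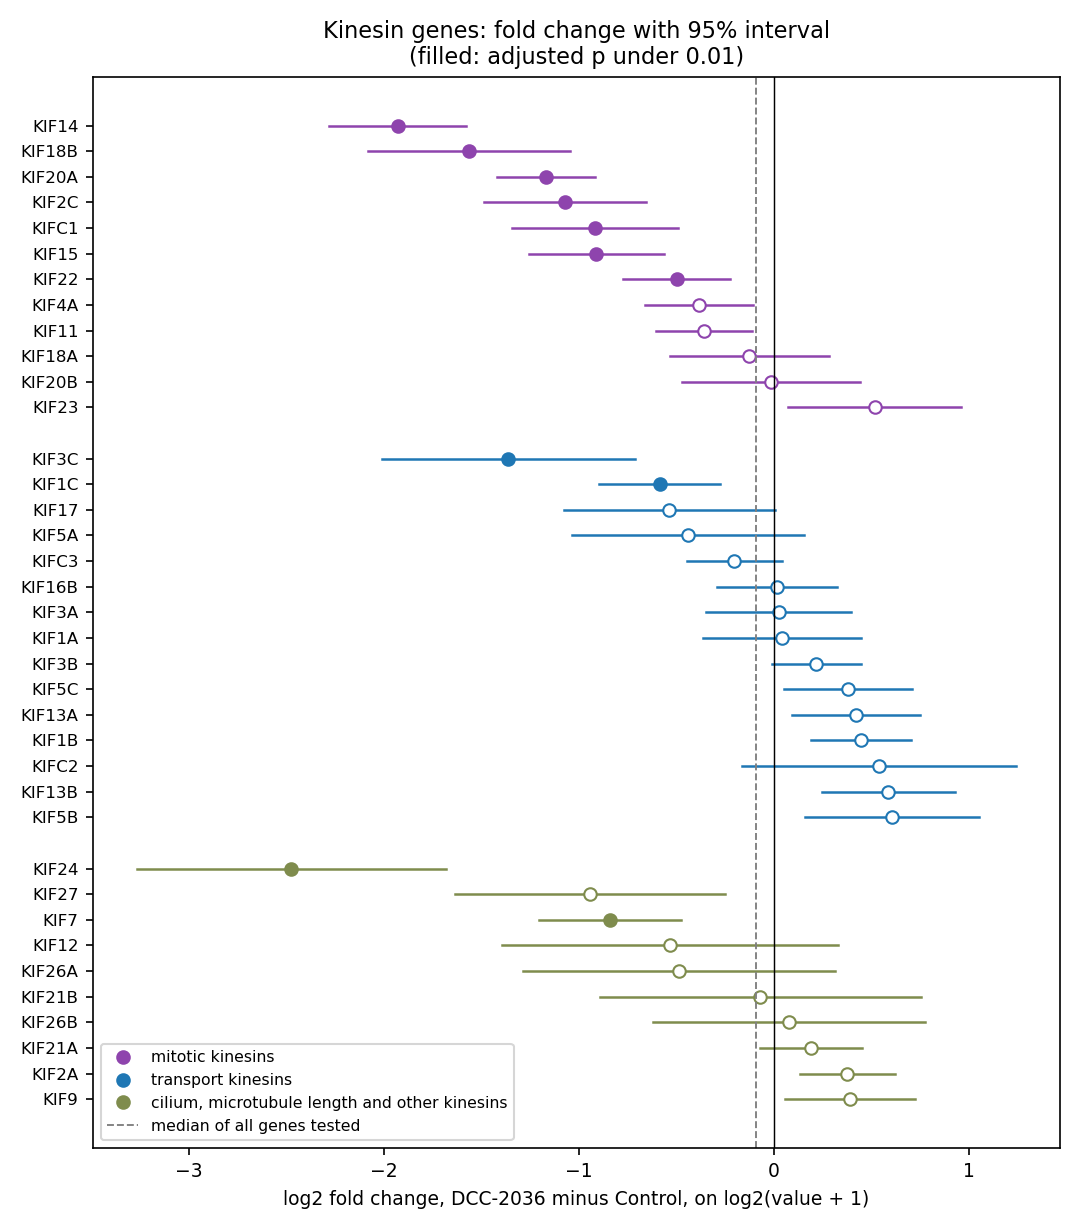
Log2 fold change of each of the 37 tested kinesins, DCC-2036 minus Control on log2(value + 1), with its 95% interval (limma, 3 libraries per group). Filled points have an adjusted p under 0.01; they lie below 0 in each case, from -0.50 (KIF22) to -2.47 (KIF24), and the dashed line is the median of all tested genes, -0.09.

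The median log2 fold change of the mitotic kinesins was -0.70, with 7 called lower and 0 called higher by limma (1 higher at an unadjusted p under 0.05), against 22.7%, 19.2% and 30.5% of all tested genes. The values of the 14 mitotic kinesins summed to 24321, 25046 and 24506 in the Control libraries. The sums were 16928, 17482 and 17289.9 in the DCC-2036 libraries, which is 70.0% of the Control mean. In bulk samples, fewer cells in mitosis and less RNA per cell cannot be told apart. Of the 11 kinesins called lower, 10 had their lowest value in DCC-2036_3, the library with the highest column total, and over all 2887 genes called lower this share was 57.3%.

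The promoters of the mitotic kinesins are shown because 7 of the 12 tested fell. Genes of G2 and M phase are known to share the letters TTTGAA or TTTAAA near the start of transcription, called the cell cycle genes homology region, and CCAAT boxes further upstream. Both motifs were searched on both strands in RefSeq promoter windows of GRCh38.p14, from 250 bases before the start to the end of a window of 300 bases, which were found for 34 kinesins. TTTAAA reads the same on both strands. TTTGAA or TTTAAA stood in the windows of 12 of 14 mitotic kinesins, 2 of 11 transport kinesins and 0 of 9 other kinesins, and in 27.9% of the 27305 genes with a window. CCAAT stood in 11 of 14 mitotic, 4 of 11 transport and 3 of 9 other kinesins, in 39.7% of all genes with a window and in 42.9% of the tested ones. Both together were found in 10 mitotic kinesins, in 11.2% of all genes with a window and in 8.92% of the tested ones. Among mitotic kinesins the share with TTTGAA or TTTAAA was 6 of 7 for those that fell and 5 of 5 for those tested and not called, so the letters did not separate these. A match describes letters and not a bound site.

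The stretches printed run from 100 bases before the start to 20 bases after it, 5′ to 3′ on the strand of the gene. Capitals mark TTTGAA or TTTAAA and the CCAAT box, each also as its reverse complement, and no matches overlap each other in these stretches. The positions are chr1:200620732-200620851, minus strand for KIF14, chr5:138179012-138179131, plus strand for KIF20A, chr17:44947754-44947873, minus strand for KIF18B and chr1:44739737-44739856, plus strand for KIF2C. They are chr6:33391723-33391842, plus strand for KIFC1, chr15:69414249-69414368, plus strand for KIF23, chr11:28108137-28108256, minus strand for KIF18A and chr17:4997850-4997969, plus strand for KIF1C. The first 5 genes fell, KIF23 and KIF18A were not called, and KIF1C is a transport kinesin that also fell and whose stretch holds none of the motifs.
KIF14: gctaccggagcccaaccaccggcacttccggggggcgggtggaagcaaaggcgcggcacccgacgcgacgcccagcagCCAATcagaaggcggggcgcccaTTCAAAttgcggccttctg
KIF20A: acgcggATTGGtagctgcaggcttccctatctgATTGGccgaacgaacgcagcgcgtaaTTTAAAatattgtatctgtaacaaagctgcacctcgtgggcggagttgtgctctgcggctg
KIF18B: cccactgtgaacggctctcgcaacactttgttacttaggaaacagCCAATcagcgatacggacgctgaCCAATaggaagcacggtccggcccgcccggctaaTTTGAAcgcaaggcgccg
KIF2C: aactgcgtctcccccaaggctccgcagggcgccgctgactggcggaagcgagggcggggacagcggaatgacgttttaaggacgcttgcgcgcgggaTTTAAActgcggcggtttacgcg
KIFC1: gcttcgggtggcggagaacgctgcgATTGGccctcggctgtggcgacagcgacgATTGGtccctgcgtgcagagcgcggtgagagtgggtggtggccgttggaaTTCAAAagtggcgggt
KIF23: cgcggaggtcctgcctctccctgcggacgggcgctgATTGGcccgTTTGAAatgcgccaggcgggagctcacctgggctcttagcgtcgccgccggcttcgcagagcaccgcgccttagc
KIF18A: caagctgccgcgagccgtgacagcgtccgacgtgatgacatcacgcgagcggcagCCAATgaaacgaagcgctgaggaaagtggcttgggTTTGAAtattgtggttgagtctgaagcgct
KIF1C: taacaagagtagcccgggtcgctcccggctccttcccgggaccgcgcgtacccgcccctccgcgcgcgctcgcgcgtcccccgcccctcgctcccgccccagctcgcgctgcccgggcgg

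Of the kinesins described here for cytokinesis, KIF14 and KIF20A were called lower and KIF23 and KIF20B were not called, and differences between these genes were not tested. KIF14, which binds citron kinase at the midbody and is needed for the last step of division, had values of 1180.1, 1098 and 971 in Control against 327, 285 and 243 in DCC-2036. Each DCC-2036 library was far below each Control library. KIF14 (GRCh38 chr1:200551497-200620734) fell by 1.93 on the log2 scale (standard error 0.14, adjusted p = 0.000281, limma), to 26.3% of the Control mean. KIF20A, which carries Aurora B and its partners to the central spindle, had values of 2432, 2488 and 2583 in Control against 1117, 1203 and 1023 in DCC-2036. Its groups were wide apart and the spread within each was small. KIF20A (GRCh38 chr5:138178719-138187715) fell by 1.17 (standard error 0.10, adjusted p = 0.000427, limma).

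KIF23, the motor of centralspindlin, went the other way among the values. They were 2814, 2748 and 2550.2 in Control against 3019.9, 3910.2 and 4897 in DCC-2036. The 3 DCC-2036 libraries lay above the Control libraries but differed widely from each other, with DCC-2036_3 highest. The log2 fold change of 0.52 (95% interval 0.07 to 0.96) missed the limit (adjusted p = 0.0468, limma), and the adjusted p was 0.00609 without DCC-2036_1. KIF20B, which acts late in cytokinesis, averaged 1067 ± 139 (SD, n = 3) in Control and 1067 ± 245 in DCC-2036. The groups overlapped, and the interval of its log2 fold change was -0.47 to 0.44. Both KIF23 and KIF20B hold TTTGAA in their promoter windows, as KIF14 does on the opposite strand.

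Among RACGAP1, CIT and AURKB, which are partners of these motors, the mean was lower with DCC-2036 in each, and only AURKB was called. Not all mitotic partners went this way, and PRC1, given below with KIF4A, had a higher mean with DCC-2036 without a call. RACGAP1, the partner of KIF23 in centralspindlin, averaged 2919 ± 67.1 in Control and 2483 ± 184 in DCC-2036 and was not called (adjusted p = 0.0837, limma). CIT, citron kinase, had a log2 fold change of -0.45 (adjusted p = 0.0304, limma) and was not called either. AURKB, the kinase that KIF20A carries, had values of 1470.5, 1559 and 1611 in Control against 234, 244 and 283 in DCC-2036. It fell by 2.61 (adjusted p = 0.000178, limma), more than KIF20A itself on the same log2 scale, though the difference between these genes was not tested.

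**Figure D2:**
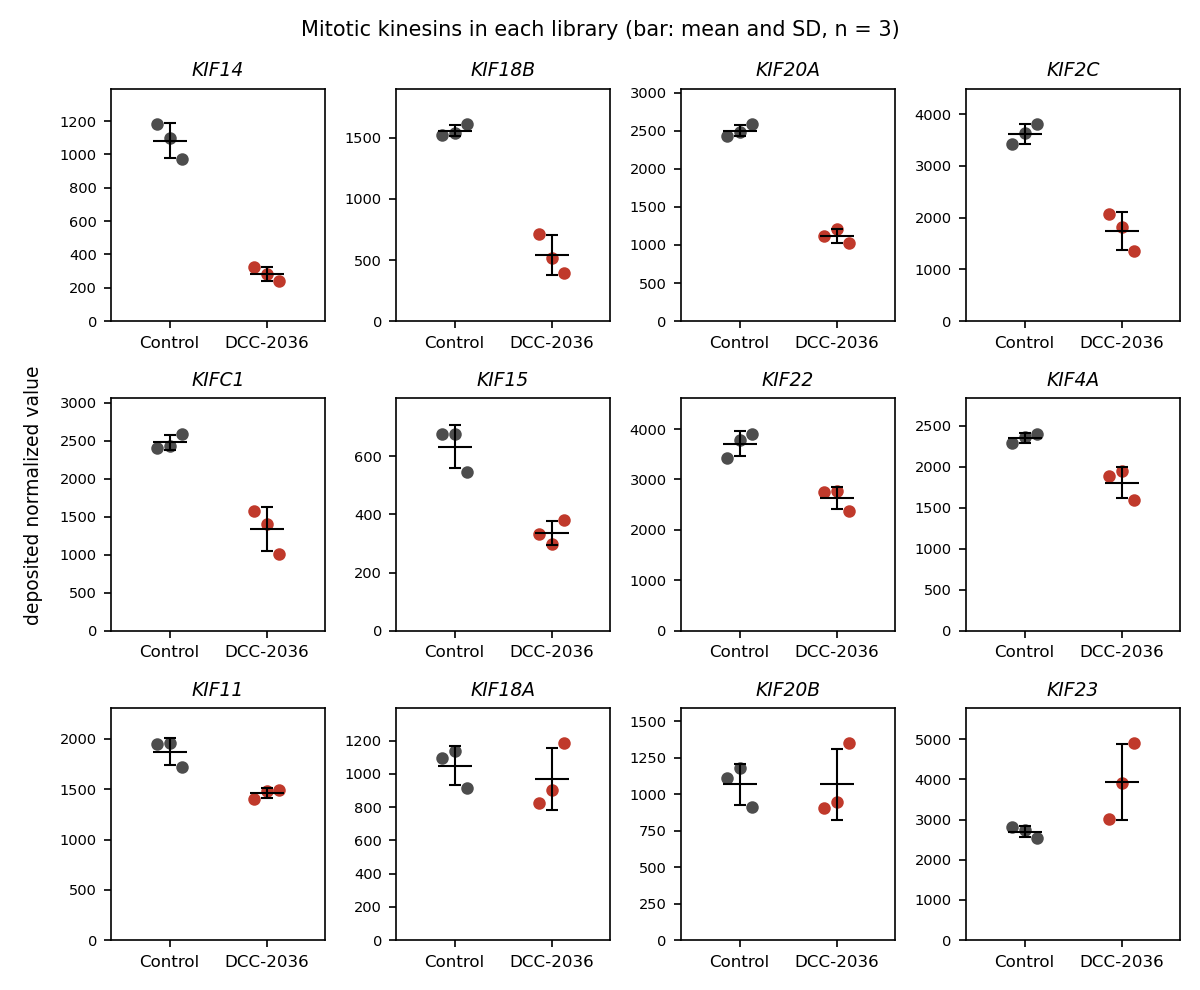
Deposited normalized value (y axis, from 0) of each of the 12 tested mitotic kinesins in each library, with points for the 3 Control and 3 DCC-2036 libraries and bars for the mean and SD. KIF14 lies at 327, 285 and 243 in DCC-2036 and at 1180.1, 1098 and 971 in Control, while the groups of KIF18A and KIF20B overlap and the DCC-2036 values of KIF23 lie above Control.

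Kinesins that act on chromosomes and kinetochore microtubules came next. KIF18B, which trims astral microtubules at their growing ends, had values of 1524, 1537 and 1609 in Control against 715, 518 and 393 in DCC-2036. The Control libraries were close together and all DCC-2036 libraries were lower, DCC-2036_3 most. KIF18B (GRCh38 chr17:44924709-44947711) fell by 1.56 (standard error 0.22, adjusted p = 0.00155, limma). KIF2C, the depolymerase that corrects wrong attachments at the kinetochore, had values of 3416, 3633 and 3803 in Control against 2069.7, 1821 and 1347 in DCC-2036. The groups were apart. KIF2C fell by 1.07 (standard error 0.17, adjusted p = 0.00261, limma), and its adjusted p lay between 0.011 and 0.0141 when Control_1, Control_2, Control_3 or DCC-2036_2 was left out.

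KIF22, a chromokinesin that pushes chromosome arms outward, had values of 3436, 3788 and 3904 in Control against 2744, 2764 and 2374 in DCC-2036. All DCC-2036 libraries were below all Control libraries, by a smaller step than for KIF2C. KIF22 fell by 0.50 with an adjusted p of 0.00926 (limma), which lay between 0.0114 and 0.0424 when any of the 6 libraries was left out. In the annotation, 13% of its exonic bases lie opposite an antisense gene, and whether counting used strand is not given in the sources used here. KIF22 was also the only mitotic kinesin called lower that had no TTTGAA or TTTAAA in its window.

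KIF4A, a chromokinesin that sets the length of the central spindle together with PRC1, averaged 2349 ± 60.1 (SD, n = 3) in Control and 1806 ± 191 in DCC-2036. Its groups did not overlap, and its log2 fold change of -0.38 was not called (adjusted p = 0.0254, limma). KIF4B is a near-copy of KIF4A, so reads could have been split between them, and its values reached 4.51 at most. PRC1 averaged 4673 ± 29.4 in Control and 5730.3 ± 491 in DCC-2036 and was not called (adjusted p = 0.0487, limma). KIF18A, which damps the swings of chromosomes at metaphase, averaged 1051 ± 118 in Control and 969.6 ± 189 in DCC-2036, with overlapping groups. CENPE, a kinetochore kinesin under another symbol, averaged 952 ± 217 and 968 ± 159.8, and its groups overlapped as well.

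Spindle assembly rests on motors that push the poles apart and motors that pull them together. KIF11, the main pushing motor, had values of 1948, 1956 and 1719 in Control against 1402, 1485 and 1496 in DCC-2036. The groups did not overlap, and the log2 fold change of -0.36 was not called (adjusted p = 0.0224, limma). With libraries scaled to equal totals KIF11 passed the limit (log2 fold change -0.55, adjusted p = 0.00536, limma). KIF15, which can keep the poles apart when KIF11 fails, had values of 677, 675 and 547 in Control against 334, 297 and 379 in DCC-2036. Each DCC-2036 library was below each Control library, and here DCC-2036_3 was the highest of its group. KIF15 fell by 0.91 (adjusted p = 0.00243, limma), and without Control_1, Control_2 or DCC-2036_2 its adjusted p was between 0.012 and 0.0138.

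KIFC1 pulls in the opposite direction and gathers extra centrosomes into spindle poles. Its values were 2409.8, 2436 and 2591 in Control against 1577, 1411 and 1013 in DCC-2036. The Control libraries were close and the DCC-2036 libraries spread below them. KIFC1 fell by 0.92 (adjusted p = 0.00499, limma), and the adjusted p was between 0.0163 and 0.0231 without Control_1, Control_2, Control_3 or DCC-2036_2. In the annotation, 12.7% of its exonic bases lie opposite a ribosomal protein pseudogene. TPX2, which brings Aurora A to the spindle, had values of 7600.0, 7648 and 8017 in Control against 9125, 11517 and 12524 in DCC-2036 and was not called (log2 fold change 0.50, adjusted p = 0.0206, limma). Its adjusted p was 0.00314 without DCC-2036_1 and 0.00588 with a variance trend.

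Transport kinesins had a median log2 fold change of 0.04, which was -0.14 with libraries scaled to equal totals and -0.02 with equal upper quartiles. limma called 2 of the 15 lower and 0 higher, and 5 were higher at an unadjusted p under 0.05, against 22.7%, 19.2% and 30.5% of all tested genes. Their values summed to 20045, 19257 and 18577 in Control against 21249.7, 22472 and 25423 in DCC-2036. Without KIF5B the sums were 12421.7, 11904.5 and 12254.5 in Control against 12483.7, 12089.2 and 11697.5 in DCC-2036. In this remainder higher and lower means offset each other, such as 1742 to 2364 for KIF1B and 4732 to 3166 for KIF1C. KIF5B, the kinesin-1 heavy chain of most tissues, had the highest value of all kinesins. Its values were 7624, 7353 and 6323 in Control against 8766, 10383 and 13725 in DCC-2036. The DCC-2036 libraries were higher but far from each other, DCC-2036_3 most, and the log2 fold change of 0.61 was not called (95% interval 0.16 to 1.05, adjusted p = 0.0275, limma). Without DCC-2036_1 its adjusted p was 0.00918. KIF5A and KIF5C, the kinesin-1 heavy chains of neurons, averaged 89.7 ± 23.1 and 284 ± 16.3 in Control against 65.9 ± 17.8 and 373 ± 52.9 in DCC-2036, and neither was called. KIF5C had an adjusted p of 0.00612 without DCC-2036_3.

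Kinesin-1 binds cargo through light chains. KLC1 had values of 1676, 1628 and 1577 in Control against 2515, 2985 and 3152 in DCC-2036. All 3 DCC-2036 libraries were above Control, and KLC1 rose by 0.82 (adjusted p = 0.0018, limma), with an adjusted p between 0.0111 and 0.0113 without Control_2, Control_3 or DCC-2036_2. KLC2 averaged 2293 ± 134 in Control and 1690.3 ± 111 in DCC-2036 and was just outside the limit (adjusted p = 0.0115, limma), which it passed with libraries scaled to equal totals (0.00512) or equal upper quartiles (0.0066). KLC4 averaged 86.4 ± 3.37 and 75.1 ± 13.8 and was not called.

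Kinesin-2 motors serve the cilium and the axon. KIF3C, which joins KIF3A mainly in neurons, had values of 278, 272 and 305 in Control against 168, 102 and 78.3 in DCC-2036. The DCC-2036 libraries were all lower and differed among themselves. KIF3C fell by 1.36 (standard error 0.27, adjusted p = 0.00554, limma), with an adjusted p between 0.0198 and 0.0243 without Control_1, Control_2, Control_3 or DCC-2036_2. KIF3A, KIF3B and KIFAP3 form the motor of anterograde ciliary transport. KIF3A averaged 428 ± 63.6 in Control and 434 ± 48.7 in DCC-2036, and KIFAP3 255 ± 17.7 and 256 ± 13.4, with overlapping groups in each. KIF3B averaged 2059 ± 81.6 and 2392 ± 84.7, without overlap and without a call (log2 fold change 0.22, adjusted p = 0.0854, limma). KIF17, a kinesin-2 that works as a homodimer, was low, with 42.1 ± 8.51 in Control and 29 ± 8.05 in DCC-2036, and was not called.

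Kinesin-3 motors carry vesicles and organelles over long distances. KIF1C had values of 4472, 4666 and 5058 in Control against 3570.3, 3164 and 2765 in DCC-2036. The groups were apart. KIF1C (GRCh38 chr17:4997948-5028401) fell by 0.58 (adjusted p = 0.00812, limma), and the adjusted p was between 0.01 and 0.0363 without Control_1, Control_2, Control_3, DCC-2036_2 or DCC-2036_3. KIF13B had values of 341, 311 and 291 in Control against 517, 511 and 397 in DCC-2036. The groups did not overlap. A log2 fold change of 0.59 lay just outside the limit (adjusted p = 0.0118, limma), and the adjusted p was 0.00251 without DCC-2036_3. KIF13A, a motor of recycling endosomes, averaged 772 ± 21.4 in Control and 1040.3 ± 158 in DCC-2036 (adjusted p = 0.0347, limma), and its adjusted p was 0.004 without DCC-2036_3. KIF16B, a motor of early endosomes, and KIF1A, a motor of synaptic vesicle precursors, had log2 fold changes of 0.02 and 0.04 with overlapping groups.

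The minus-end motors KIFC2 and KIFC3 were not called. KIFC2 averaged 521 ± 66.6 in Control and 796 ± 328 in DCC-2036, and the spread in DCC-2036 was wide. In the annotation, 17.8% of its exonic bases lie opposite FOXH1. KIFC3, which moves cargo toward the apical side of epithelial cells, averaged 695 ± 42.2 and 604 ± 28.8 (log2 fold change -0.20, adjusted p = 0.126, limma). Of its 9 deposited transcripts, 3 had log2 fold changes between -0.42 and -0.47 with adjusted p-values of 0.00604, 0.0067 and 0.00867 in a limma fit of all transcripts.

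**Figure D3:**
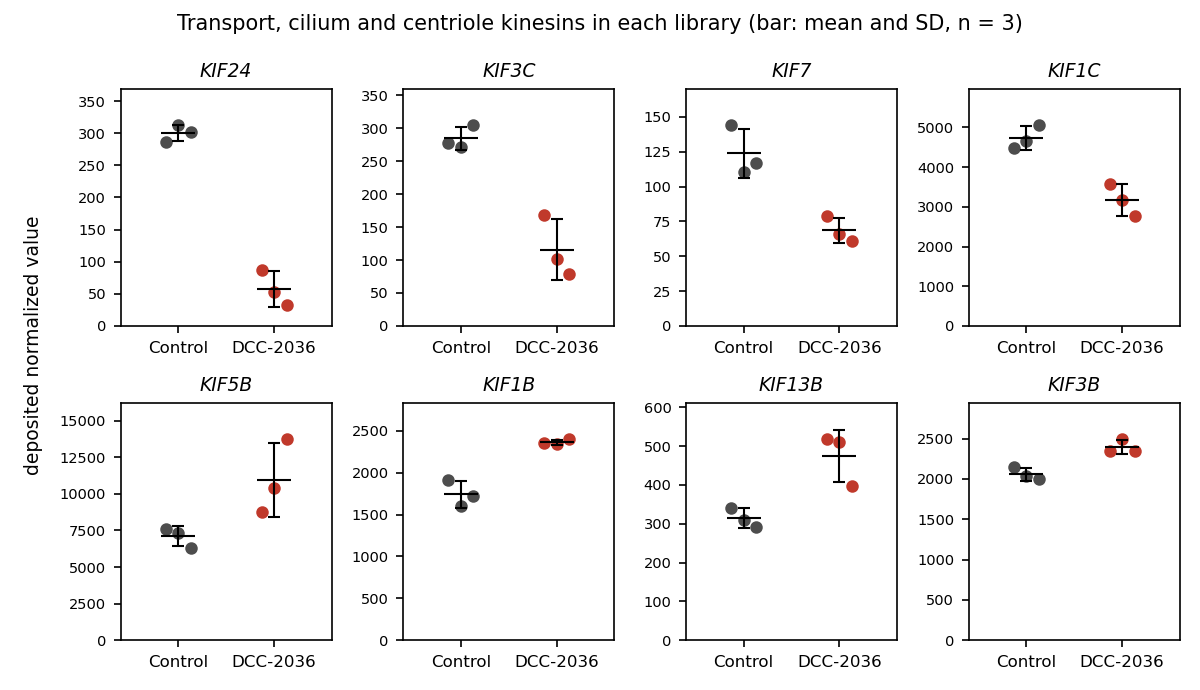
Deposited normalized value (y axis, from 0) in each library of the 4 kinesins outside the mitotic group that fell (KIF24, KIF3C, KIF7 and KIF1C) and of KIF5B, KIF1B, KIF13B and KIF3B, which were not called. Points are the 3 Control and 3 DCC-2036 libraries and bars the mean and SD; KIF24 lies at 86.8, 53.1 and 32.6 in DCC-2036 against 287, 313 and 302 in Control.

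KIF1B is known to make different motors from different ends of its RNA, and its 2 transcripts were singled out after their values were seen. The transcript with 47 exons, which stood for the gene, had values of 1914, 1596 and 1716 in Control against 2357, 2339 and 2397 in DCC-2036. All DCC-2036 libraries were above Control, and the log2 fold change of 0.44 was just outside the limit (adjusted p = 0.0116, limma). The transcript with 21 exons had values of 617, 596 and 630.5 in Control against 1875, 2407 and 3176 in DCC-2036. Every DCC-2036 library was above every Control library, and in the limma fit of all transcripts it rose by 1.98 (standard error 0.19, adjusted p = 0.000525). The ratio of the 21-exon to the 47-exon value was 0.322, 0.373 and 0.368 in Control against 0.796, 1.03 and 1.32 in DCC-2036. The ratios did not overlap between the groups and were not tested.

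In the GENCODE 29 annotation of GRCh38 the KIF1B transcripts share 2130 exonic bases, so part of the reads may count for both. The 21-exon transcript ends in a stretch of 5435 bases of its own at chr1:10303163-10308597, plus strand, where the 47-exon transcript is intronic, and the latter has 27 more exons beyond it. A small RNA pseudogene, RN7SL731P, lies on the same strand and overlaps 293 bases of KIF1B exons, and whether these lie within the stretch is not given here. Reads from unspliced RNA would fall on the stretch of 5435 bases. The part of either in the ratio was not tested. Among the 18 kinesins with more than 1 tested transcript, 15 had log2 fold changes within 0.2 of each other, and KIF1B had the widest spread.

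**Figure D4:**
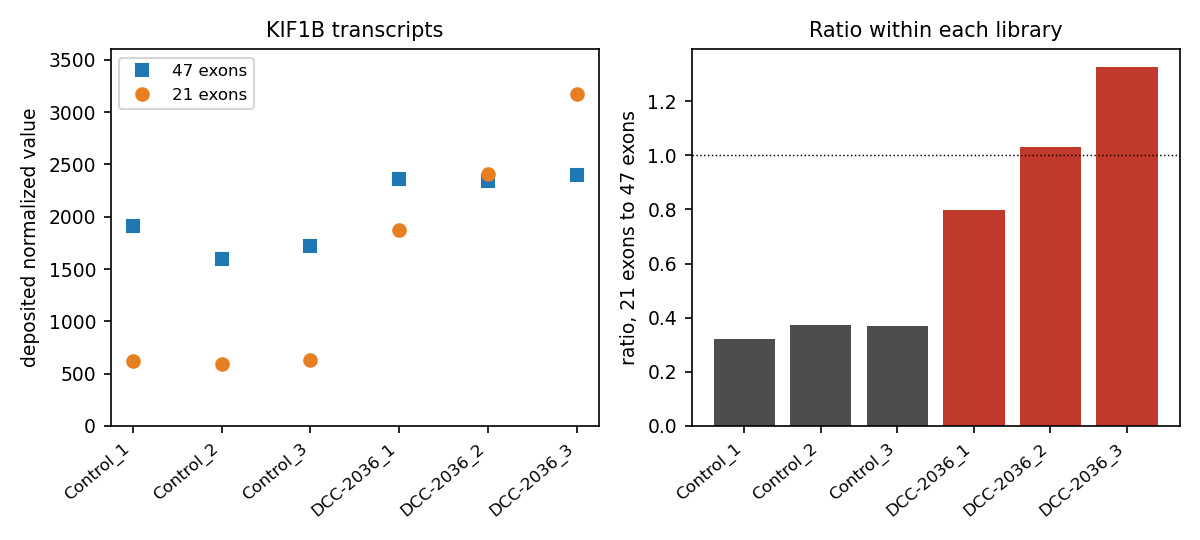
Left, deposited normalized value of the KIF1B transcripts with 47 exons (squares) and 21 exons (circles) in each library; right, their ratio in each library, with a dotted line at 1. The ratio is 0.322, 0.373 and 0.368 in Control against 0.796, 1.03 and 1.32 in DCC-2036.

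Kinesins of cilia, microtubule length and other tasks had a log2 fold change of -0.28 at the median, with 2 of 10 called lower and 0 higher by limma (2 higher at an unadjusted p under 0.05), against 22.7%, 19.2% and 30.5% of all tested genes. KIF24, which sits at the mother centriole and holds back the growth of a cilium, had values of 287, 313 and 302 in Control against 86.8, 53.1 and 32.6 in DCC-2036. Control libraries were close together and each DCC-2036 library was far lower. KIF24 (GRCh38 chr9:34252381-34311371) fell by 2.47 (standard error 0.33, adjusted p = 0.00136, limma), to 19.1% of the Control mean, the largest fall of the 37 tested kinesins. KIF7, which organizes the tip of the cilium in Hedgehog signalling, had values of 144, 110.4 and 117 in Control against 78.7, 66.1 and 61.2 in DCC-2036. The groups did not overlap. KIF7 fell by 0.84 (adjusted p = 0.00396, limma), and the adjusted p was between 0.0119 and 0.0189 without Control_1, Control_2, Control_3 or DCC-2036_2. TICRR, an expressed gene on the opposite strand, overlaps 11.8% of the exonic bases of KIF7.

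KIF27, the closest relative of KIF7, averaged 77.7 ± 6.72 in Control and 42.2 ± 17.5 in DCC-2036, without overlap. Its log2 fold change of -0.94 was not called (adjusted p = 0.0276, limma), and the adjusted p was 0.00252 without DCC-2036_1. KIF2A, a depolymerase of spindle poles and neurons, averaged 941 ± 38.6 in Control and 1223 ± 76.5 in DCC-2036 and was not called (log2 fold change 0.38, adjusted p = 0.0169, limma). In the annotation, it shares 9% of its exonic bases with IPO11, an expressed gene on the same strand. KIF9, a motor of motile cilia, averaged 149 ± 4.25 and 197 ± 33.1 (adjusted p = 0.0466, limma), and 14.9% of its exonic bases lie opposite the antisense gene KIF9-AS1. KIF21A and KIF21B, which limit microtubule growth, had log2 fold changes of 0.19 and -0.07. KIF26A and KIF26B, which lack motor activity, had -0.49 and 0.08, and KIF12 had -0.53. None of these 5 was called, and the groups overlapped in each except KIF21A.

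Mitotic and transport kinesins were set side by side in each library by the median of log2(value + 1) over the tested members. The mitotic median was above the transport median by 2.14, 2.25 and 2.51 in Control and by 1.27, 1.35 and 1.46 in DCC-2036. The gap was smaller in every DCC-2036 library than in every Control library. The median log2 fold change of the mitotic kinesins was lower than that of the transport kinesins, with a difference of -0.75. A scaling of libraries shifts all genes nearly alike and leaves this difference in place. The difference would be smaller in size with KIF2A, which had a higher mean with DCC-2036 and was not called, counted as mitotic. Relative to the median of all tested genes, the mitotic kinesins stood at -0.61 and the transport kinesins at 0.14. No test was made of these scores, since the members were chosen with results known.

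Levels of different kinesins were compared per kilobase of transcript, which assumes that the deposited values were not already corrected for length. By the mean value itself over the 6 libraries KIF5B was highest. In Control the highest were KIF22 with 1481 ± 97.4 (SD, n = 3), KIF2C with 1256 ± 67.4 and KIF5B with 1208 ± 117 per kilobase. KIF2C and KIF5B differed by less than their spread. In DCC-2036 KIF5B was highest, with 1865 ± 430.4 per kilobase, before KIF23 with 1059 ± 252 and KIF22 with 1049 ± 87.7. KIF23 and KIF22 could not be told apart in that group. KIF2C stood at 606 ± 128 per kilobase there.

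Genes that work with the mitotic kinesins were counted in the same fit, where 22.7% of all tested genes were called lower and 19.2% higher. Of 18 mitotic partners, limma called 10 lower and 0 higher (2 higher at an unadjusted p under 0.05), with a median log2 fold change of -0.64. KNSTRN, a spindle protein at kinetochores, had the largest fall, by 2.73 (adjusted p = 0.000194, limma). PLK1, a mitotic kinase that docks on KIF20A, fell by 0.65 (adjusted p = 0.00381, limma), and its adjusted p was between 0.0115 and 0.0203 without Control_1, Control_2, Control_3 or DCC-2036_2. Of 20 other G2/M genes, limma called 16 lower and 0 higher (1 at an unadjusted p under 0.05), with a median of -0.76. The proliferation genes MKI67 and TOP2A fell, with log2 fold changes of -1.06 and -1.48, as did CDC20 (-1.32), CCNB1 (-1.75) and CDC25C (-2.34). Of 20 regulators of G2/M transcription, limma called 13 lower and 0 higher (1 at an unadjusted p under 0.05), with a median of -0.96. This count and median do not separate regulators by the direction in which they act. FOXM1 had values of 3572, 3460.2 and 3887 in Control against 1990.0, 1911 and 1704 in DCC-2036 and fell by 0.96 (adjusted p = 0.000831, limma). MYBL2 fell with a log2 fold change of -0.96, and so did E2F8 (-2.86), RB1 (-1.94) and TFDP1 (-0.62), while RBBP4 was not called (0.19). Without Control_1, Control_2, Control_3 or DCC-2036_2 the adjusted p was 0.0133 to 0.0148 for RB1 and 0.0126 to 0.0166 for TFDP1, and it was 0.012 to 0.0148 for MYBL2 without Control_2, Control_3 or DCC-2036_2.

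Genes that work with the transport kinesins were called in both directions, as were all tested genes (22.7% lower and 19.2% higher). Of 22 light chains and cargo adaptors, limma called 2 lower and 5 higher, with a median log2 fold change of -0.02. CLSTN1, a cargo that binds kinesin-1 light chains, rose by 0.60, whereas the adaptors MAPK8IP2 and TRAK2 fell, with log2 fold changes of -2.28 and -0.94. Of 20 tested genes of dynein and dynactin, the motor that runs against most kinesins, 3 were called lower and 9 higher, with a median of 0.42. DYNC1H1, the dynein heavy chain, rose by 0.61, DCTN1 by 0.57 and DCTN4 by 1.32, and BICD1 fell by 1.58. Of 19 genes of intraflagellar transport, the cargo trains of kinesin-2, 9 were called lower and 1 higher, with a median of -0.79. IFT27 and IFT22 fell, with log2 fold changes of -2.74 and -1.91, and IFT57 and IFT52 were not called. Of 18 tested tubulins, the track of all these motors, 6 were called lower and 3 higher, with a median of -0.19. TUBA1B and TUBB, the tubulins with the highest values, had log2 fold changes of 0.01 and -0.07 with overlapping groups, while TUBA8, whose values were low, and TUBD1 fell, with log2 fold changes of -3.51 and -2.52. Without Control_1, Control_2, Control_3 or DCC-2036_2 the adjusted p was 0.0134 to 0.0176 for CLSTN1, 0.0257 to 0.0371 for TRAK2, 0.0131 to 0.0207 for DYNC1H1, 0.0158 to 0.0206 for DCTN1 and 0.0139 to 0.0165 for TUBD1. With libraries scaled to equal totals it was 0.0115 for CLSTN1 and 0.0258 for DYNC1H1. TRAK2 was also not called without the filter on low values (0.0201) or with a pseudocount of 0.1 (0.0101). With the replicate number as a block PLK1, TFDP1, MYBL2, KLC1, CLSTN1, TRAK2, DYNC1H1, DCTN1 and TUBD1 were not called (0.0105 to 0.019).

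Markers of cell types were read beside these results and beside the 22.7% of all tested genes called lower and the 19.2% called higher (30.5% higher at an unadjusted p under 0.05). Of 10 epithelial and colon markers, 7 were tested, and limma called 1 lower and 2 higher (4 higher at an unadjusted p under 0.05). KRT8 was the most abundant and rose by 0.84, CDH1 rose by 1.10, KRT20 fell by 1.15, and KRT19 was not called. VIL1, CEACAM5 and LGALS4 had values of 7.23 at most, so these 3 colon markers were near 0 in cells labelled as from the colon. CDX2, a transcription factor of the intestine, was present, with 297 ± 17.1 in Control and 286 ± 76 in DCC-2036, and was not called. The adjusted p was 0.0116 to 0.0154 for KRT8 without Control_1, Control_2, Control_3 or DCC-2036_2, and 0.0173 to 0.0182 for KRT20 without Control_1 or Control_3. Without the filter on low values it was 0.0105 for KRT20 and 0.0143 for CD4, and with the replicate number as a block 0.0214 and 0.019. With a variance trend it was 0.0197 for CD4. The epithelial values summed to 104483, 108194 and 114999.5 in Control against 148344, 163491 and 188449.6 in DCC-2036, and without KRT8 they summed to 48879.9, 48135.8 and 50865.8 in Control against 55420.4, 57099.4 and 63054.4 in DCC-2036. Of 6 neuron markers 3 were tested, limma called 1 lower and 0 higher (1 at an unadjusted p under 0.05), and the sums were 5845, 6049 and 6487 in Control against 5241, 4327 and 3094 in DCC-2036. TUBB3 was the most abundant of them and was not called (log2 fold change -0.60, adjusted p = 0.0668, limma). MAP2, at 169 ± 16.4 in Control and 307 ± 118 in DCC-2036, had higher values without overlap and was not called (log2 fold change 0.79, adjusted p = 0.0381, limma). Its adjusted p was 0.00868 without DCC-2036_1. SYT1 fell by 1.55, and SNAP25 was at 3.16 or less. Of 7 immune markers 2 were tested, with CD68 the most abundant, CD4 called lower (adjusted p 0.0155 to 0.0273 without Control_1, Control_2, Control_3 or DCC-2036_2), and PTPRC listed at 0 in all libraries. Their sums were 282, 324 and 306 in Control against 251, 274 and 342 in DCC-2036. Of 7 fibroblast markers 2 were tested and 0 called by limma (0 higher at an unadjusted p under 0.05), COL1A1 was the most abundant, COL3A1 was not called, and the sums were 443, 414 and 369.6 and 522, 454 and 554. Of 5 endothelial markers 1, VWF, was tested and not called by limma (adjusted p = 0.0611), though it was higher at an unadjusted p under 0.05. PECAM1 was at 5.15 or less, and the endothelial sums were 14.2, 10.5 and 18.6 and 42.3, 15.4 and 21.4. The part of these shifts in the values of kinesins such as KIF5A, KIF5C and KIF3C, which neurons use, was not tested.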

How the data were processed

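Bulk RNA of LoVo cells was sequenced in 6 libraries, 3 Control and 3 DCC-2036, grouped by the titles of their labels. The authors deposited 1 value per RefSeq transcript and library, not whole and treated as a normalized signal, for 45006 transcripts. The aligner, the genome build, the normalization and the counting rules are not given in the sources used here, and reads could not be recovered. The table's columns of log2 fold change, p-value and q-value hold the authors' own comparison of the groups and were not used.

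For each of 19223 symbols the transcript with the highest mean was kept. The 12725 genes that reached 10 in 3 or more libraries were tested on log2(value + 1) with limma 3.58.1 in R 4.3.3, two-sided, without covariates, with Benjamini-Hochberg adjustment over all of them and calls at an adjusted p under 0.01. A test of read counts does not apply to such values. The code was checked on simulated data. Tables and plots were made with Python 3.11.15, pandas 2.3.3, numpy 2.4.6, scipy 1.17.1 and matplotlib 3.10.9.

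Kinesins were described by counts and medians beside all tested genes. Gene positions, exons and transcript lengths came from GENCODE 29 (GRCh38) through RefSeq accessions, and lengths may differ from those the authors used. Promoter windows came from RefSeq (GRCh38.p14). Every kinesin was accounted for, and those with an adjusted p under 0.01 and the 5 with the highest mean were given per library. Of each other list, the 2 genes with the highest mean and the 2 called with the largest absolute log2 fold change were named, and CENPE, PRC1, RACGAP1, TPX2, CIT, KIFAP3, KLC1, KLC2, KLC4, FOXM1, MYBL2, MKI67 and TOP2A whatever their values. CDX2, MAP2 and the near-absent markers VIL1, CEACAM5, LGALS4, PTPRC and SNAP25 were named after seeing the data. The members and the lists were chosen with earlier results of these data known. Alternatives covered the pseudocount, the filter, 3 scalings, a replicate block, a variance trend, every transcript as an entry, the call limit and each library left out. Those for partner genes, the counts by role and the KIF1B and KIFC3 transcripts were chosen after seeing the data.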

Additional observations from a re-analysis of the deposited data

How the results depend on the processing

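With 3 libraries per group and an unknown depth, small changes are missed and low values carry an unknown counting error. KIF14, KIF18B, KIF20A and KIF24 were called under every alternative run, and the other 7 kinesins called lower kept their direction in each. The count of 11 was 7 without a filter on low values and 6 when the log2 fold change also had to reach 1 in size. Without single libraries it ran from 4 (without Control_1, Control_2 or DCC-2036_2) to 11 (without DCC-2036_1), with 5 without Control_3. The count of kinesins called higher, 0 in limma, was 2 with a value of at least 10 in all 6 libraries, 2 with the median of ratios, 4 with a variance trend and 8 at an adjusted p under 0.05, and it ran from 0 to 3 without single libraries (2 without DCC-2036_1, 3 without DCC-2036_3). Over all tested genes, 2887 were lower and 2442 higher. These were 1930 and 944 when the log2 fold change also had to reach 1 in size. Without a filter 2154 of 16667 genes were lower. The higher count was 2471 with a value of at least 10 in all 6 libraries and 2643 with the median of ratios. It was 2880 with a variance trend, 3630 at an adjusted p under 0.05 and 2501 without DCC-2036_3. Without single libraries the lower count ran from 1502 (without Control_2) to 3444 (without DCC-2036_1) and the higher count from 929 (without DCC-2036_2) to 2717 (without DCC-2036_1). The lower and higher counts were 1571 and 968 without Control_1, 1534 and 965 without Control_3, 942 higher without Control_2 and 1650 lower without DCC-2036_2. These fits hold fewer samples. With every transcript as an entry, of which 32323 were tested, 7250 were lower and 6379 higher. The difference of the mitotic and transport medians, -0.75, was -0.54 without a filter, where KIF4B, with values near 0, enters the mitotic median. It ran from -0.88 to -0.67 without single libraries.

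Scaling to equal totals moved the median of all genes by -0.19, to -0.28, and gave 3384 lower and 1718 higher genes, 33.7% of calls higher in place of 45.8%. The median of mitotic kinesins was -0.89 there. Among the kinesins and the named partner genes, for which alternatives were run, signs turned only in genes that were not called. With equal totals the log2 fold change was -0.17 for KIF16B, -0.14 for KIF1A, -0.095 for KIF26B, -0.16 for KIF3A, -0.15 for CENPE, -0.18 for KIFAP3, -0.089 for IFT52, -0.18 for TUBA1B and -0.15 for KRT19. With equal upper quartiles it was -0.048 for KIF16B, -0.021 for KIF1A, -0.04 for KIF3A, -0.027 for CENPE, -0.061 for KIFAP3, -0.056 for TUBA1B and -0.026 for KRT19. With the median of ratios it was 0.057 for KIF20B, 0.002 for KIF21B, 0.001 for TUBB and 0.036 for CD68. Without single libraries it ran from -0.063 to 0.12 for KIF16B, -0.066 to 0.21 for KIF1A, -0.20 to 0.089 for KIF20B, -0.36 to 0.33 for KIF21B, -0.21 to 0.29 for KIF26B, -0.101 to 0.12 for KIF3A, -0.15 to 0.071 for CD68, -0.28 to 0.109 for CDX2, -0.17 to 0.15 for CENPE, -0.20 to 1.14 for COL3A1, -0.035 to 0.059 for KIFAP3 and -0.03 to 0.061 for TUBA1B. Apart from fewer samples or genes, the cause was not tested.

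With the replicate number as a block, 5 kinesins were lower and 0 higher in limma, and over all tested genes 1909 were lower and 1202 higher. The numbers did not pair the samples: deviations from the group means correlated at 0.081, -0.035 and -0.003 for replicates 1, 2 and 3.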
